A study of Mus musculus with 15 samples.

Results

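The miR-99/100 and miR-125 families are sets of short regulatory RNAs whose genes lie in clusters with genes of the let-7 family. Their levels were followed in transplanted mouse livers. The 4 miRNAs mmu-miR-99a, mmu-miR-100, mmu-miR-125a-5p and mmu-miR-125b-5p were taken by name from an Agilent array that carries 567 mouse miRNAs. Of these 4, miR-99a and miR-125b-5p were detected on all 15 arrays and were tested, whereas miR-100 was detected on 3 arrays and miR-125a-5p on 0, so that neither entered the tests.

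The 15 arrays, 1 per liver graft, fell into 5 groups of 3 male mice: syngeneic grafts on day 5 after transplantation, and allogeneic grafts on day 5, day 8, day 14 and day 100. The allografts came from B10.BR (H2-Kk) donors and were placed in B10.D2 (H2-Kd) recipients without immunosuppressive drugs, as the study describes its model. The labels give this same strain pair for the syngeneic arrays, so these were identified by their titles, and which strain was used for them is not named. There was no syngeneic group at later days, so a difference of day 8, 14 or 100 from the syngeneic grafts holds both the donor difference and the later day. The RNA came from whole graft tissue, in which fewer cells of a type and less RNA per cell cannot be told apart.

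A miRNA binds target mRNAs mainly through its seed, the bases 2 to 8 of its mature form, and lowers their translation or stability. The miR-99/100 family is known for repressing mTOR, a kinase that drives cell growth, and the miR-125 family for acting in blood cell formation and on Lin28, an RNA-binding protein that blocks the maturation of let-7. The let-7 family itself is known for holding cells in a differentiated state. In 3 clusters of the mouse genome a miR-99/100 gene, a let-7 gene and a miR-125 gene follow each other on the same strand.

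The mature sequences are shown because they decide what the array can tell apart. They were taken from RefSeq (build GRCm38.p6), which lists all 4 miRNAs, 2 of them with the suffix 5p that the array name lacks. They are written from 5′ to 3′ with the seed in capitals. The first 3 share a seed, as do the next 2 and the last 3.
miR-99a: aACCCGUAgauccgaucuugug
miR-100: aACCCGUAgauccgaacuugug
miR-99b: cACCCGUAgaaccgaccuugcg
miR-125a-5p: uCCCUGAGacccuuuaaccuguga
miR-125b-5p: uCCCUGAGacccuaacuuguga
let-7a: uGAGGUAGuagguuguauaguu
let-7c: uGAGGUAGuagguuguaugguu
let-7e: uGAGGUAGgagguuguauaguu

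Counted from the 5′ end, miR-99a and miR-100 differ at a single base, U16A, outside the seed. MiR-99b differs from miR-99a at 4 bases, of which A1C is the first. MiR-125a-5p (24 bases) and miR-125b-5p (22 bases) share their first 13 bases. The partners let-7a and let-7c are separated by A19G only. Of the 1679 mature mouse names in the RefSeq table, 3 carry the miR-99/100 seed, 5 the miR-125 seed and 11 the let-7 seed.

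On chromosome 16 the mature miR-99a lies at chr16:77598940-77598961 on the plus strand, and let-7c begins 732 bases downstream. A copy of miR-125b-5p begins a further 46607 bases on, at chr16:77646279-77646300, and the table lists no other gene spanning these positions. On chromosome 9 the order is miR-100 (chr9:41531437-41531458), let-7a 5295 bases downstream, and the other copy of miR-125b-5p (chr9:41581940-41581961), all inside the long noncoding RNA gene Mir100hg. On chromosome 17, miR-99b, let-7e and miR-125a-5p (chr17:17830817-17830840) lie within the bounds of the protein-coding gene Spaca6. Both copies of miR-125b-5p give the same mature sequence, so the array cannot assign its signal to chromosome 16 or 9. The precursors of the detected members are shown with the measured arm in capitals, miR-99a from chromosome 16 and miR-125b from chromosome 9.
mir-99a: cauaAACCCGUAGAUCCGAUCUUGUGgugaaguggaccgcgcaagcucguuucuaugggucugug
mir-125b-1: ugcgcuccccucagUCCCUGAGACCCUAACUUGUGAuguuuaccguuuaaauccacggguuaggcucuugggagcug

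Each of the 4 miRNAs was measured by 2 probes, and its signal was the sum of their mean background-subtracted intensities. Detection on an array required that a share of 0.5 or more of a probe's spots be flagged as well above background, and either probe sufficed for the miRNA. For miR-99a, the brighter probe was detected on 15 arrays (22.5 to 160 intensity units) and the dimmer on 2. For miR-125b-5p, the brighter probe was detected on 15 arrays (41.5 to 260 units) and the dimmer on 0, so each level rested mainly on 1 probe.

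MiR-100, the chromosome 9 relative of miR-99a, was detected in syngeneic replicate 3 at 15.9 units, in day 5 allograft replicate 2 at 17.2 and in day 100 replicate 3 at 24.0. These detections were spread over 3 groups, and in no group was miR-100 detected on all 3 arrays. Its intensity over all arrays was 4.11 to 28.5 units (median 10.4), and the highest value, from day 100 replicate 1, was not well above background. That array was noisier than the rest, with an additive error of 13.1 units against 2.67 to 3.66 on the other arrays.

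MiR-125a-5p, from the chromosome 17 cluster, was not well above background on any array (0 of 15), with intensities of 2.90 to 47.8 units (median 9.16). The 47.8 units again came from day 100 replicate 1, and the next highest value was 13.7. No fold change is given for miR-100 or miR-125a-5p. The array cannot show whether they were absent or below its limit.

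The relatives and other arms were also near or below the detection limit. MiR-99b, miR-99b*, miR-125b-3p and miR-125b* were detected on 0 arrays, and miR-125a-3p, the other arm of the miR-125a precursor, on 1. The star arms miR-99a* and miR-100* were not found among the array's names. Of the chromosome 17 cluster, let-7e was detected on 13 of 15 arrays.

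**Figure D1:**
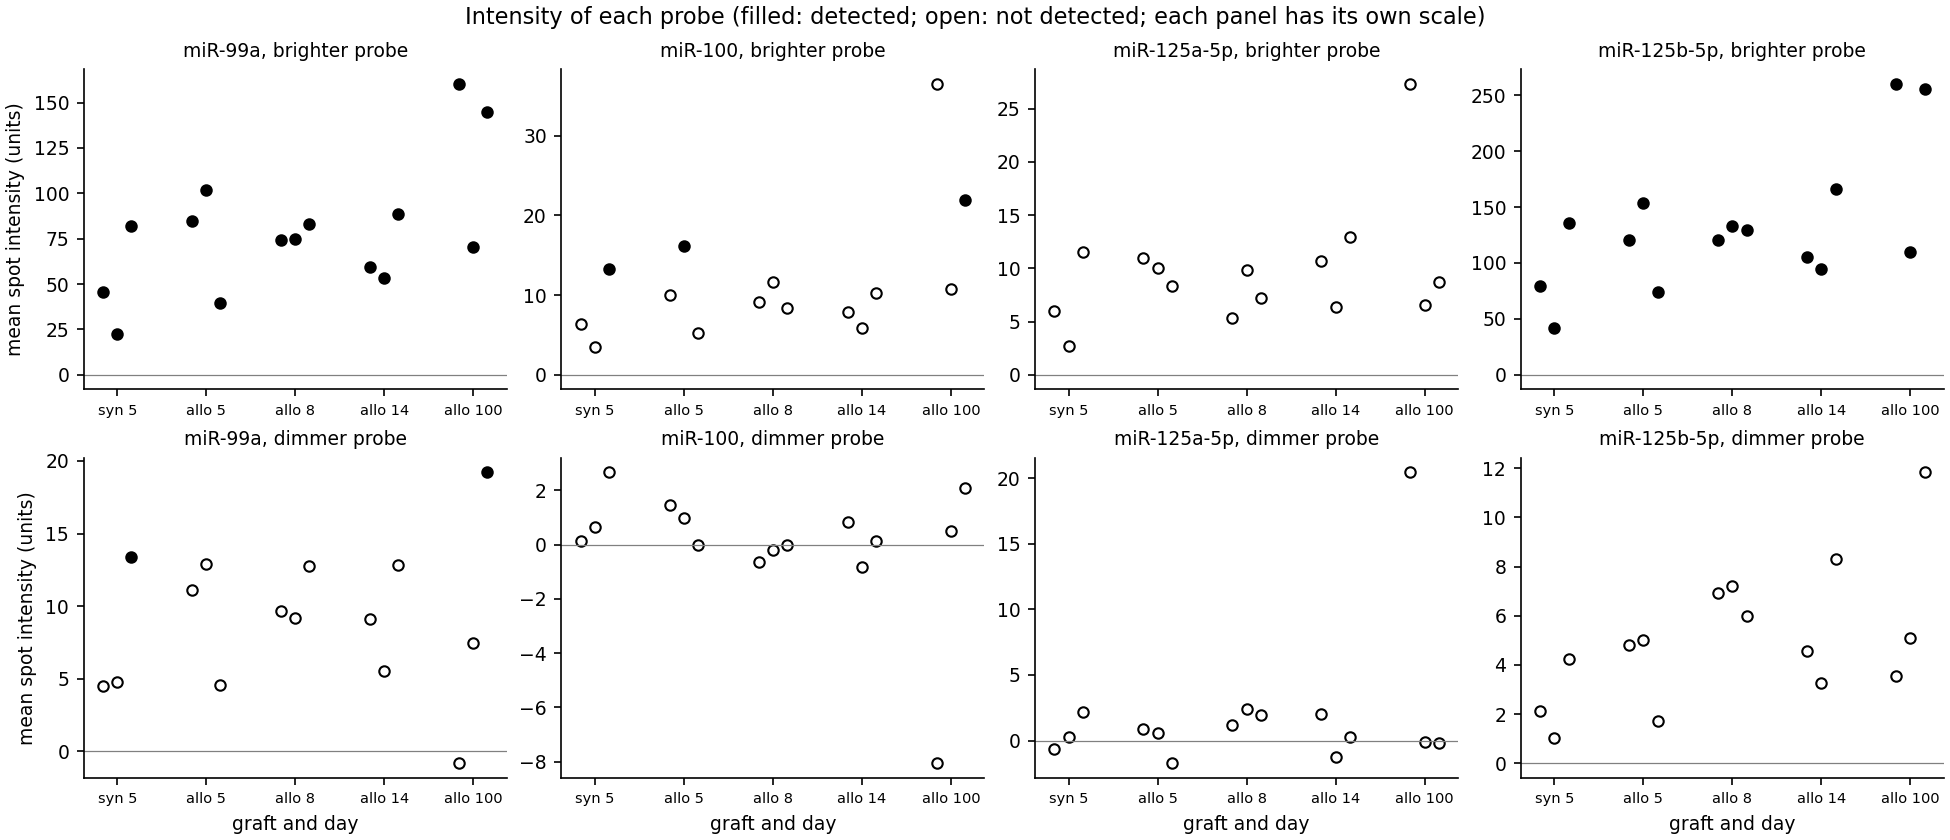
Mean spot intensity (background-subtracted units, linear axis, a separate scale per panel) of both probes of each member on the 15 arrays, by graft and day, with filled points for detected and open points for undetected probes. The brighter probes of miR-99a and miR-125b-5p were detected on all 15 arrays, that of miR-100 on 3 and that of miR-125a-5p on 0.

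For the tests, each array was scaled to the 75th percentile of the 52 miRNAs detected on all arrays, and scaled signals were put on the log2 scale. On this scale miR-99a stood at -3.36, -3.86 and -2.69 in the 3 syngeneic grafts. Among the allografts the levels were -3.21, -3.05 and -3.37 on day 5, -3.09, -3.21 and -3.11 on day 8, -3.59, -3.67 and -3.33 on day 14, and -2.65, -2.73 and -2.24 on day 100. The day 100 grafts were the highest allografts, with no overlap with days 5, 8 or 14, whereas syngeneic replicate 3 lay among them.

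MiR-125b-5p stood at -2.66, -3.22 and -2.14 in the syngeneic grafts. It stood at -2.82, -2.58 and -2.60 on day 5, -2.50, -2.47 and -2.61 on day 8, -2.91, -2.94 and -2.55 on day 14, and -1.93, -2.16 and -1.53 on day 100. Again no allograft of an earlier day reached the day 100 grafts, and syngeneic replicate 3 did.

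The mean log2 levels of miR-99a, from lowest to highest, were -3.53 ± 0.18 (SD, n = 3) on day 14, -3.30 ± 0.58 in the syngeneic grafts, -3.21 ± 0.16 on day 5, -3.14 ± 0.06 on day 8 and -2.54 ± 0.26 on day 100. MiR-125b-5p took the same order, at -2.80 ± 0.22, -2.67 ± 0.54, -2.67 ± 0.13, -2.53 ± 0.08 and -1.87 ± 0.32. Among neighbors in this order, the arrays overlapped between day 14 and the syngeneic grafts, between the syngeneic grafts and day 5, and between days 5 and 8. The syngeneic grafts had the widest spread of the 5 groups for both miRNAs. The moderated F test across groups called both (limma, Benjamini-Hochberg adjusted p = 0.028 for each), as it did 64.1% of all miRNAs tested.

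**Figure D2:**
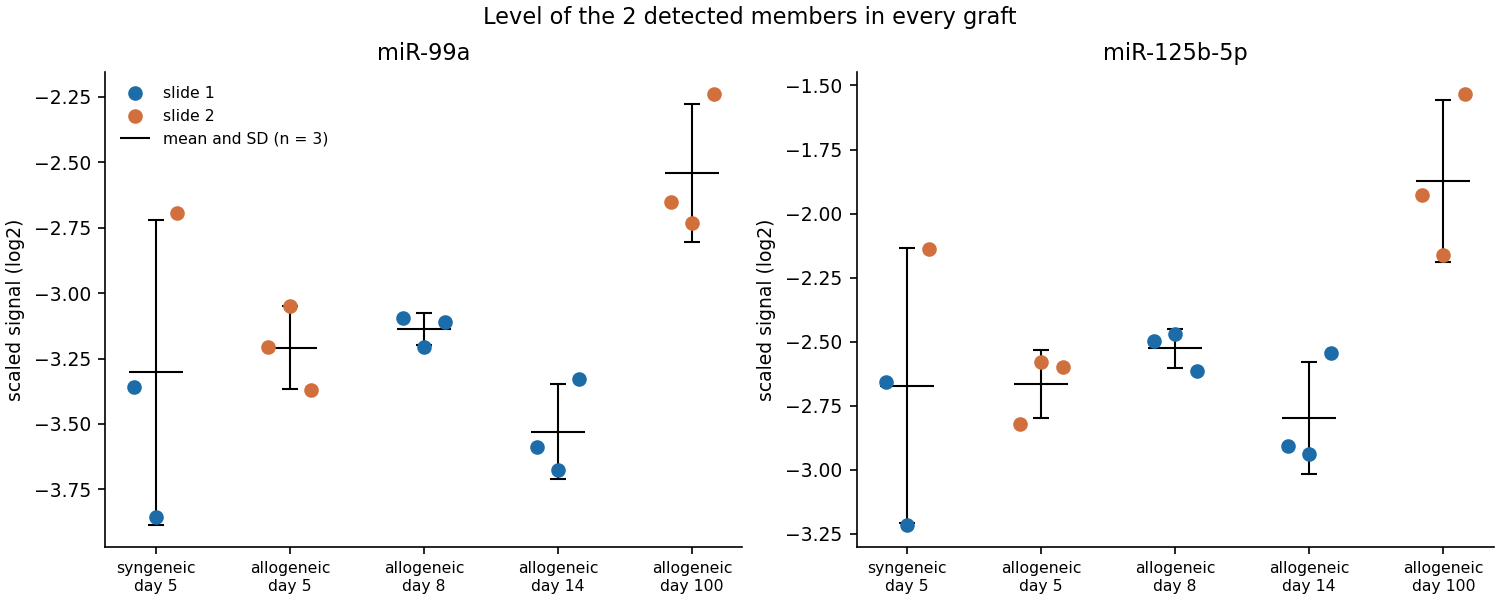
Scaled signal (log2) of miR-99a and miR-125b-5p in each graft by group. Points are arrays, colored by slide, and bars give the mean and SD of 3 arrays. The day 100 grafts lie above all other allografts, and the syngeneic array on slide 2 lies above the 2 on slide 1.

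The arrays lay on 2 slides. Slide 1 held days 8 and 14 with syngeneic replicates 1 and 2, and slide 2 held days 5 and 100 with syngeneic replicate 3. The syngeneic grafts differed between the slides: miR-99a was at a mean of -3.61 on slide 1 and at -2.69 on slide 2, and miR-125b-5p at -2.94 and -2.14. A fit with the slide as a block rests on this split of 3 arrays wherever the days compared lie on different slides. Against the syngeneic grafts, that fit sets days 5 and 100 beside syngeneic replicate 3 alone, and days 8 and 14 beside replicates 1 and 2. Day 100 against day 5 and day 14 against day 8 are comparisons within a slide and carry no such dependence.

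Day 100 against day 5 of the allografts, within slide 2, compares the accepted graft with the early one. MiR-125b-5p was higher on day 100 by 0.79 on the log2 scale (standard error 0.24), or 1.73-fold, with all 3 arrays above those of day 5 and an adjusted p = 0.025 (limma with Benjamini-Hochberg adjustment, as for all adjusted p below). MiR-99a differed by 0.67 (standard error 0.24), or 1.59-fold, also with no overlap of the arrays, and its adjusted p = 0.051 missed the threshold of 0.05. So 1 of the 2 tested members was called higher, where 7.77% of all tested miRNAs were. Of all 103 tested miRNAs, 14 had all arrays of day 100 above those of day 5, and 34 had all below. Adding the slide as a block left the differences the same, and both members were called (adjusted p = 0.013 for miR-99a and 0.010 for miR-125b-5p). The standard errors were then 0.17 and 0.19 in place of 0.24. That fit takes the gap between the syngeneic arrays of the 2 slides out of the spread, so these 2 calls depend on that split. The call of miR-125b-5p was lost without replicate 1 (0.82, adjusted p = 0.053) or 3 (0.62, adjusted p = 0.11) of day 100, and without replicate 1 (0.72, adjusted p = 0.081) or 3 (0.83, adjusted p = 0.062) of day 5.

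Day 14 was compared with day 100. Both members were lower on day 14, with a log2 difference of -0.99 for miR-99a (standard error 0.24, 1.99-fold lower, adjusted p = 0.0060) and of -0.92 for miR-125b-5p (standard error 0.24, 1.90-fold lower, adjusted p = 0.0074). All 3 arrays of day 14 lay below all 3 of day 100 for each. The same held for 26 of all 103 tested miRNAs, and 41 had all arrays of day 14 above those of day 100. Both of the 2 tested members were thus called lower, against 18.4% of all tested miRNAs. These days did not share a slide, and a fit with the slide as a block gave differences of -0.07 (95% interval -0.76 to 0.61) and -0.13 (-0.88 to 0.63), with neither called (adjusted p = 0.85 and 0.77). Leaving out any 1 array kept both calls, with differences of -1.09 to -0.84 for miR-99a and -1.07 to -0.75 for miR-125b-5p.

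Against the syngeneic grafts, both members were higher on day 100. The log2 difference was 0.76 (standard error 0.24, 1.70-fold, adjusted p = 0.029) for miR-99a and 0.80 (standard error 0.24, 1.74-fold, adjusted p = 0.025) for miR-125b-5p, and 16.5% of all tested miRNAs were called higher. The groups overlapped through syngeneic replicate 3, the only syngeneic array on the slide of day 100. Adding the slide as a block gave 0.15 and 0.27, and neither was called (adjusted p = 0.75 and 0.61). Without syngeneic replicate 2, the lowest array for both members, they were 0.49 and 0.53 (adjusted p = 0.13 and 0.11). That array also had the lowest 75th percentile intensity of the 15, 395 units against 457 to 1018 on the others. Without replicate 3 of day 100 the differences were 0.61 and 0.63 (adjusted p = 0.12 and 0.11), and without syngeneic replicate 1 that of miR-99a was 0.73 (adjusted p = 0.057).

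At the earlier days neither member was called against the syngeneic grafts. The log2 differences on day 5 were 0.09 for miR-99a (95% interval -0.43 to 0.62) and 0.01 for miR-125b-5p (-0.51 to 0.52), where 25.2% of all tested miRNAs were called in either direction. On day 8 they were 0.17 (-0.36 to 0.69) and 0.14 (-0.37 to 0.66), with 40.8% of miRNAs called. On day 14 they were -0.23 (-0.75 to 0.30) and -0.13 (-0.64 to 0.39), with 45.6% called. In these 6 comparisons, fitted without the slide, the lowest unadjusted p was 0.37. When the slide was a block, the day 5 differences turned to -0.52 and -0.53 and the day 14 differences to 0.08 and 0.14, none of them called. In that fit the day 8 differences were 0.47 for miR-99a (95% interval 0.05 to 0.89, adjusted p = 0.068) and 0.41 for miR-125b-5p (-0.06 to 0.88, adjusted p = 0.14), also not called.

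Among the other allograft days, day 14 was compared with days 5 and 8. Against day 5 the differences were -0.32 and -0.13, and against day 8, within slide 1, they were -0.39 (95% interval -0.92 to 0.13) for miR-99a and -0.27 (-0.79 to 0.25) for miR-125b-5p. Neither member was called in these, where 12.6% and 5.83% of the tested miRNAs were. When the slide was a block, the differences from day 5 turned to 0.59 and 0.67, neither called. Day 100 lay above day 8 by 0.60 (adjusted p = 0.095) and 0.65 (adjusted p = 0.077) with no overlap of arrays, in a comparison added after the data were seen that called 19.4% of the miRNAs and neither member. Of all 103 tested miRNAs, 19 had all arrays of day 100 above those of day 8, and 42 had all below. The direction of both members turned when the slide was a block, to -0.32 and -0.14.

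**Figure D3:**
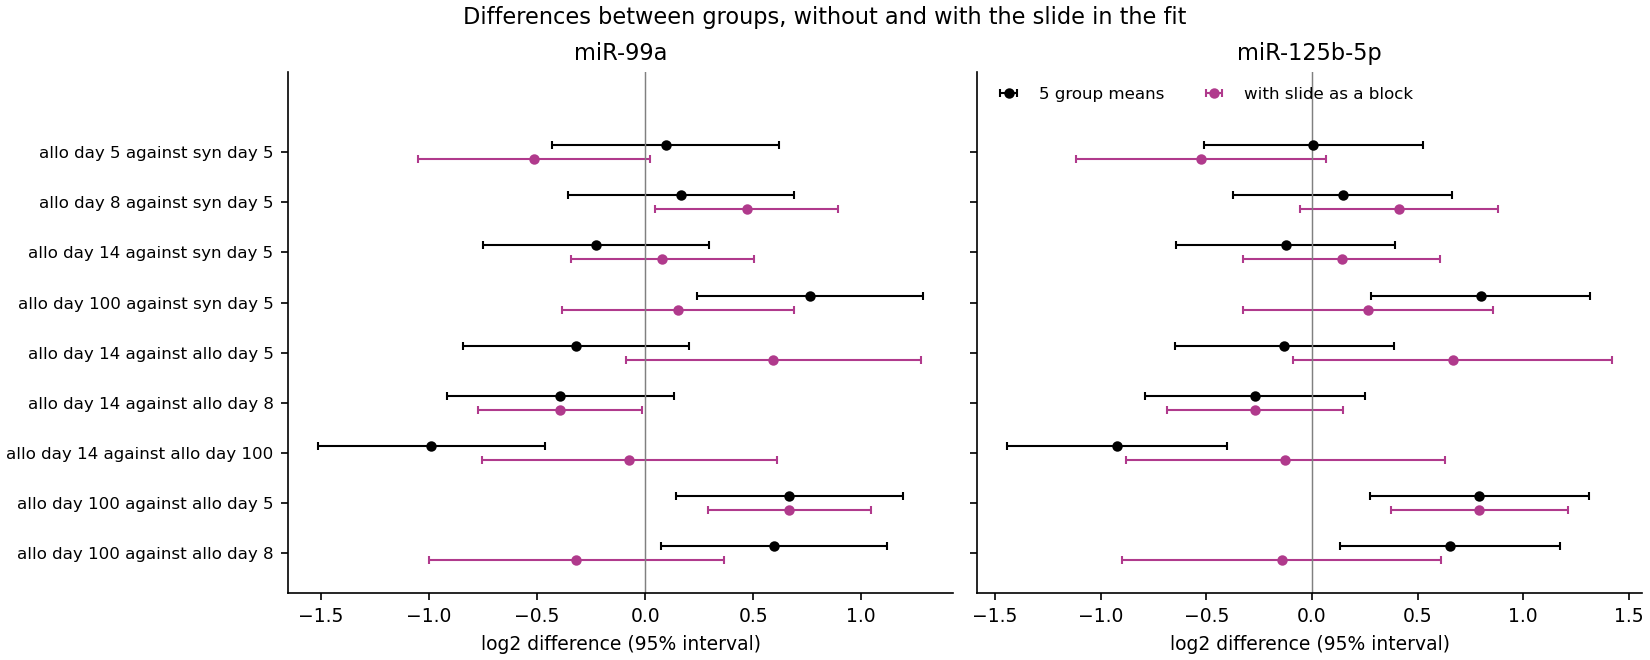
Log2 differences between groups with 95% intervals for miR-99a and miR-125b-5p, from a fit of 5 group means (black) and the same fit with the slide as a block (purple). The difference of day 100 from day 5 was 0.67 and 0.79 in both fits, whereas that of day 14 from day 100 moved from -0.99 and -0.92 to -0.07 and -0.13.

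MiR-99a and miR-125b-5p varied together. Over the 15 arrays the Pearson correlation of their log2 levels was 0.96, and each was the tested miRNA most like the other. The arrays share the scaling and the slides, so this value is a description and carries no p. On the same array the log2 difference of miR-99a from miR-125b-5p ranged from -0.78 to -0.39 with an SD of 0.12, against SDs of 0.43 for each miRNA alone. Outside these families, the miRNAs most like miR-99a were miR-195 (0.92), miR-497 (0.90) and miR-29a (0.89), and those most like miR-125b-5p were miR-29a (0.90), miR-195 (0.89) and miR-10a (0.87). Without the slide in the fit, miR-195, miR-497, miR-10a and miR-29a differed by -1.21, -1.26, -0.85 and -0.48 on day 14 against day 100 (adjusted p = 0.0052, 0.0052, 0.023 and 0.066). In the same order they were higher on day 100 than on day 5 by 0.93, 0.88, 0.77 and 0.49 (adjusted p = 0.025, 0.037, 0.051 and 0.091). They were picked for their likeness, so the shared direction is a description.

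The let-7 partners were read on the same arrays. Let-7c, the neighbor of miR-99a on chromosome 16, has another copy on chromosome 15 with the same mature sequence. The array cannot assign its signal to either copy. Let-7c stood at log2 levels of -0.36, -0.81 and -0.14 in the syngeneic grafts and at -0.98, -0.48 and -0.74 on day 5. It stood at -0.36, -0.33 and -0.45 on day 8, at -0.96, -0.81 and -0.84 on day 14, and at 0.03, 0.33 and 0.31 on day 100. Its day 100 grafts lay above all other arrays, the syngeneic ones included.

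Let-7c was higher on day 100 than on day 5 by 0.96 on the log2 scale (standard error 0.18, adjusted p = 0.0030) and than the syngeneic grafts by 0.66 (adjusted p = 0.020), and lower on day 14 than on day 100 (-1.09, adjusted p = 0.00073). Let-7a, the partner of miR-100 on chromosome 9 with further copies elsewhere, was higher on day 100 than on day 5 by 0.64 (adjusted p = 0.037) and than the syngeneic grafts by 0.64 (adjusted p = 0.036). When the slide was a block, the differences from the syngeneic grafts were 0.36 for let-7c and 0.23 for let-7a, and the difference of day 14 from day 100 was -0.64 for let-7c (adjusted p = 0.15), none of them called. Let-7e, the partner of miR-125a-5p, was called in none of the comparisons (0 of 9; 0 at an unadjusted p under 0.05), and the noisier array of day 100 held it at the floor of the scale.

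Of the 9 let-7 family members, all tested, 3 were called higher and 0 lower on day 100 against day 5, with a median log2 difference of 0.21 beside -0.14 over all tested miRNAs. On day 14 against day 100, 5 were called lower and 0 higher (median -0.67 beside 0.10), and on day 100 against the syngeneic grafts 3 higher and 0 lower (median 0.36 beside 0). Of all tested miRNAs, 7.77% were called higher and 21.4% lower on day 100 against day 5. The shares were 33% and 18.4% on day 14 against day 100, and 16.5% and 14.6% on day 100 against the syngeneic grafts. When the slide was a block, the 5 calls between days 14 and 100 were lost and let-7i was called higher on day 14 (1.02, adjusted p = 0.016), with a median of -0.08 beside 0.40 over all tested miRNAs. There, 20 of all tested miRNAs were called higher on day 14 and 0 lower. In the same fit none (0) of the family was called on day 100 against the syngeneic grafts, beside 2 higher and 14 lower of all 103 tested miRNAs. On day 100 against day 5 that fit called 3 of the family higher and let-7i lower (-0.41, adjusted p = 0.031). Of all tested miRNAs it called 11 higher and 24 lower there. The correlation with miR-99a over the arrays was 0.86 for let-7c and 0.87 for let-7a and let-7b, but -0.01 for let-7i and 0.07 for miR-98, which carries the let-7 seed. The comparisons share their day 100 or syngeneic arrays.

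**Figure D4:**
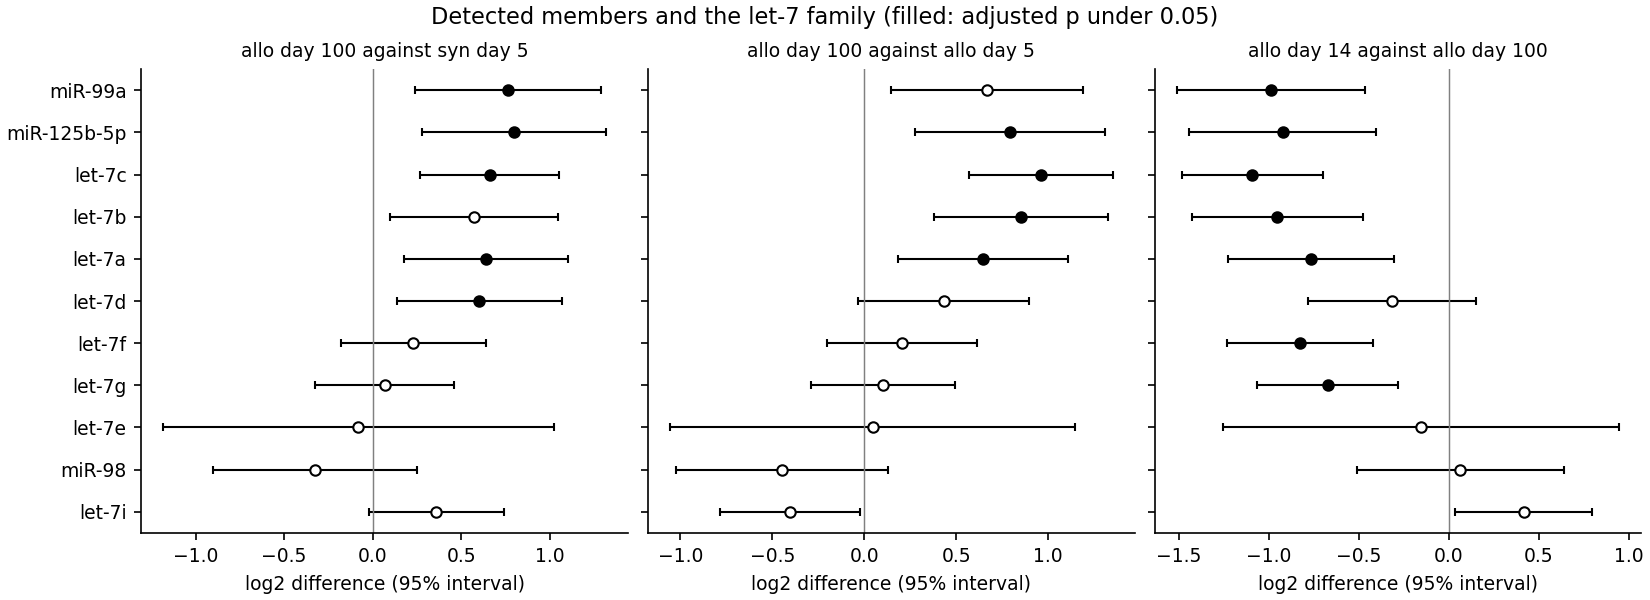
Log2 differences with 95% intervals for the 2 detected members and the 9 members of the let-7 family in 3 comparisons, with filled points for an adjusted p under 0.05. Let-7c, at 0.96 on day 100 against day 5 and -1.09 on day 14 against day 100, lies near miR-99a and miR-125b-5p, whereas let-7i lies on the other side of 0 in both comparisons.

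A difference between 2 miRNAs on the same array does not depend on the scaling. Of 9 pairs set for this, 4 had both miRNAs detected on all arrays. The mean log2 difference of miR-125b-5p from let-7c was -2.23 in the syngeneic grafts and higher by 0.23 in the 9 allografts of days 5, 8 and 14 (two-sided exact permutation p = 0.068, adjusted p = 0.27 over the 4 pairs). For miR-99a and let-7c the change was 0.23 (exact p = 0.15, adjusted p = 0.29), for miR-125b-5p and let-7a -0.04 (exact p = 0.67, adjusted p = 0.89), and for miR-99a and miR-125b-5p 0.0031 (exact p = 0.97, adjusted p = 0.97). None of the 4 passed, where 9 arrays against 3 can give a p as low as 0.0045, and a group of 3 against 3 cannot go below 0.1. On day 100 the changes from the syngeneic grafts were 0.14, 0.10, 0.16 and -0.04 for the pairs in this order. Their exact permutation p ran from 0.5 to 0.9. The slide was not part of this test. The size of such a difference is not a ratio of the miRNAs, since different probes were compared, and only its change between groups was read.

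**Figure D5:**
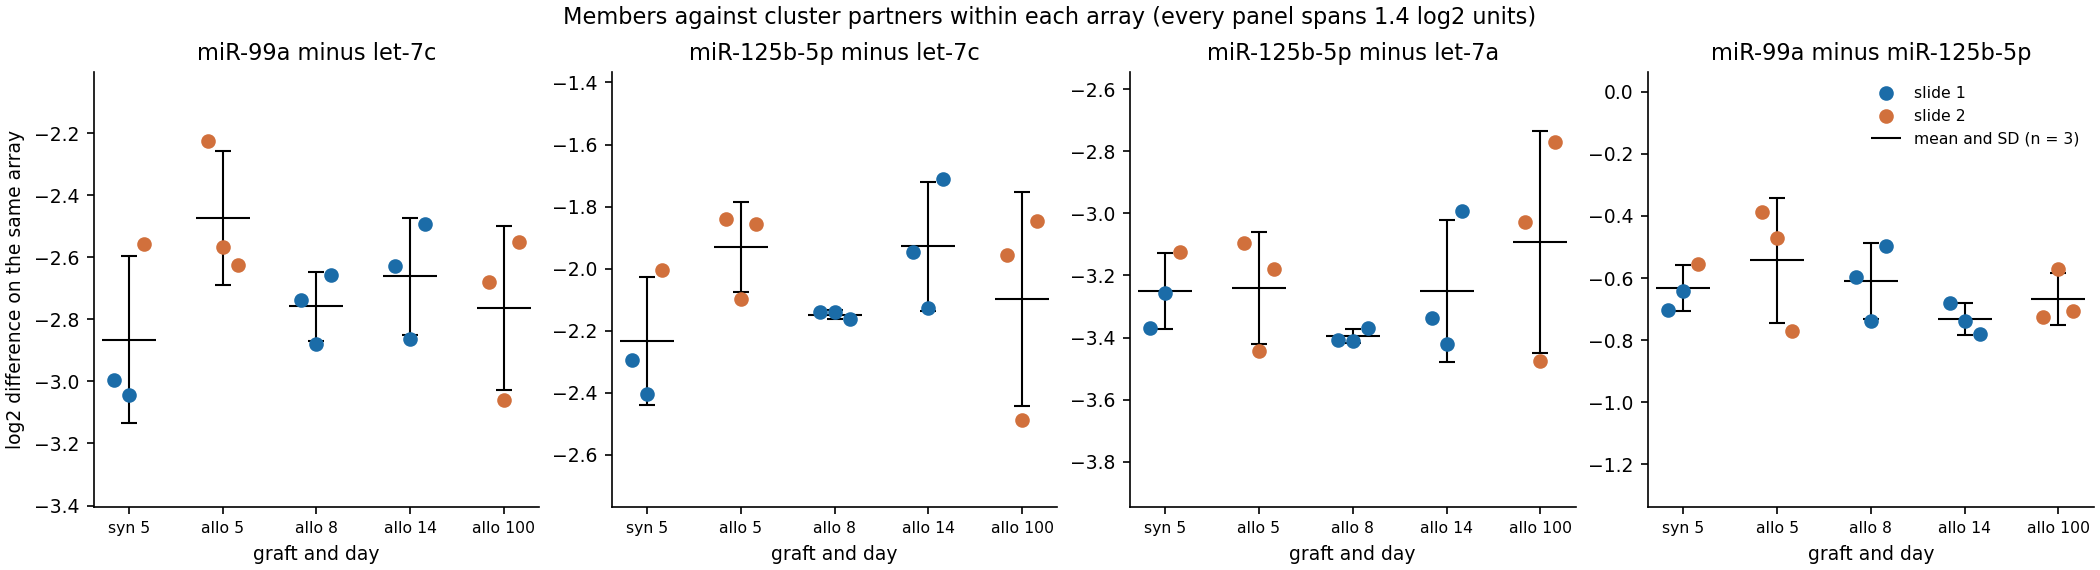
Log2 difference between a member and a cluster partner on the same array, by graft and day, for the 4 pairs detected on all arrays (every panel spans 1.4 log2 units, with points colored by slide and the mean and SD of 3 arrays). The difference of miR-99a from miR-125b-5p stays between -0.78 and -0.39.

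Markers of cell types moved between the same groups. Some of them had been picked by the study from these same arrays. Their direction against the syngeneic grafts, and between days 14 and 100, was therefore known beforehand. In the hepatocyte list these were miR-101a, miR-101b and miR-148a, reported as downregulated. Reported as upregulated were miR-223 and miR-146a of the leukocyte list and miR-451 of the erythroid list. The summed scaled signal of the hepatocyte list (6 miRNAs, all tested, led by miR-122) was 31.1 to 37.0 in the syngeneic grafts, 22.6 to 26.7 on day 5, 23.4 to 25.2 on day 8, 13.6 to 17.6 on day 14 and 23.7 to 28.2 on day 100, so hepatocyte miRNAs were present in every group. That of the leukocyte list (8 miRNAs, 6 tested, miR-150 never detected) was 0.714 to 1.78, 3.23 to 8.38, 2.47 to 2.88, 3.30 to 4.49 and 1.25 to 1.66 in the same order. Where the members were lower, on day 14 against day 100, 6 of 6 tested leukocyte miRNAs were higher and 4 of 6 hepatocyte miRNAs lower, beside 34 higher and 19 lower of all 103 tested miRNAs. When the slide was a block, 3 of the 6 leukocyte miRNAs were called higher there and 0 of the 6 hepatocyte miRNAs lower, beside 20 higher and 0 lower of all tested. Between days 5 and 100, 5 of 6 leukocyte miRNAs were lower on day 100, and of the hepatocyte list 2 were lower and 0 higher. Beside these, 22 of all 103 tested miRNAs were called lower on day 100 and 8 higher. Of the stromal and endothelial list (7 miRNAs, 6 on the array) 2 were tested and none was called in any of the 9 comparisons without the slide in the fit, whereas with it the endothelial miR-126-3p was called higher than in the syngeneic grafts at the middle days, by 0.42 on day 8 and 0.34 on day 14 (adjusted p = 0.011 and 0.028). On each of these days that fit called 32 of all 103 tested miRNAs higher, and the median over all tested miRNAs was 0.32 on day 8 and 0.23 on day 14. The list had summed signals of 0.847 to 1.07 in syngeneic grafts and 1.04 to 1.23 in allografts, and its smooth muscle marker miR-145 was never detected. The erythroid list, blood cell miRNAs such as miR-451, reached its highest sum, 2.48, on day 14 and its lowest, 0.597, in a syngeneic graft. Its 2 tested members did not move together. On day 8 against the syngeneic grafts, miR-451 was called higher (1.21, adjusted p = 0.013) and miR-144 lower (-1.57, adjusted p = 0.018). On day 14, miR-451 was called higher (1.55, adjusted p = 0.0023) and miR-144 was not called (0.01). The part of these cell types in the levels of miR-99a and miR-125b-5p was not tested.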

How the data were processed

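Total RNA of 15 grafts was labeled with Cy3 and hybridized to 1-color Agilent miRNA arrays. The authors deposited, per array, the background-subtracted and detrended intensity of each spot from Feature Extraction (version 9.5.1.1, per the file headers), with flags for spots above background and no normalization between arrays. The table of log2 values was not used here. The array headers name another genome build than the RefSeq tables, so positions are those of GRCm38.p6.

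Here, spots flagged as controls or outliers were dropped, spot intensities were averaged per probe, and the 1 to 4 probes of a miRNA were summed. Each array was scaled by the 75th percentile of the 52 miRNAs that every array detected, values under a floor of 0.0270 (-5.21 in log2) were set to it, and log2 was taken. The test covered the 103 mouse miRNAs that at least 1 group detected on its 3 arrays, with limma (version 3.58.1, R 4.3.3) and 1 mean per group over 15 arrays. The threshold was 0.05 after Benjamini-Hochberg adjustment. Among tested values, 8.28% lay at the floor, which understates changes of dim miRNAs. Precision is limited by having 3 arrays in each group. No spot was saturated, and 60 to 115 miRNAs were detected per array. No 2 arrays of a group were copies.

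Members, gene lists, markers and the miRNAs named were chosen with earlier results of these data known. The rule named the 4 members, their relatives and other arms, the let-7 family and, per member, the 3 other miRNAs with the highest correlation. Alternatives were other scalings, probe summaries, filters, floors and moderation, a normexp correction on median intensities (the files hold no means), the methods' t-test, slide or replicate number as a block, and each array left out. The fit was tested on simulated data. Figures used Python 3.11.15 and matplotlib.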

Additional observations from a re-analysis of the deposited data

Results flagged for a closer look

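The level of the detected members differed between days of the allografts, by a test of the difference itself (limma with Benjamini-Hochberg adjustment). On day 14 against day 100, miR-99a differed by -0.99 on the log2 scale (adjusted p = 0.0060) and miR-125b-5p by -0.92 (adjusted p = 0.0074), each lower on 3 of 3 arrays. All arrays of day 14 lay below those of day 100 for 26 of all 103 tested miRNAs. These days lay on different slides, and when the slide was a block the differences were -0.07 and -0.13 (adjusted p = 0.85 and 0.77), neither called. On day 100 against day 5, within a slide, miR-125b-5p differed by 0.79 (adjusted p = 0.025), higher on 3 of 3 arrays, as were 14 of all 103 tested miRNAs.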

How the results depend on the processing

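Across 33 alternatives and 18 log2 differences of the detected members, 489 of 576 values kept their direction and side of the threshold, 34 lost and 23 gained a call, and 30 turned, none of those (0) for a called difference. The cause of a change was not tested.

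Both calls on day 100 against the syngeneic grafts were lost (0 members) with the percentile over all mouse miRNAs, normexp, no filter, the slide as a block, only the groups compared and the methods' t-test with and without adjustment, and 1 remained with quantile normalization. Without 1 array the count was 0 to 2. On day 14 against day 100 it was 0 with no scaling, no filter or the slide as a block. On day 100 against day 5 it was 0 with the percentile over all miRNAs, no scaling, no filter or the adjusted t-test, 2 with median scaling, normexp, mean log2 of probes, the slide block, the replicate block, only the groups compared or the unadjusted t-test, and 0 to 2 without 1 array. On day 100 against day 8 it was 2 with median scaling, only the groups compared or the unadjusted t-test, 1 with quantile normalization, and 0 to 2 without 1 array. Normexp called 2 on day 14 against the syngeneic grafts, and the unadjusted t-test 1 on day 14 against day 8. Over the alternatives, the number of all miRNAs called ran from 21 to 55 on day 14 against the syngeneic grafts (main 47). It ran from 0 to 34 on day 14 against day 8 (main 6) and from 1 to 45 on day 100 against day 8 (main 20). The F test called 0 with the percentile over all miRNAs, no scaling or no filter, and 0 to 2 without 1 array.

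Turned values are given for miR-99a, then miR-125b-5p. Day 5 against the syngeneic grafts turned with quantile normalization (-0.052 and -0.034), normexp (-0.28 and -0.28) and the slide block (-0.52 and -0.53), for miR-125b-5p also with mean log2 (-3e-04) and the software's total signal (-0.030). Without 1 array it ranged from -0.18 to 0.40 and from -0.27 to 0.27, lowest without syngeneic replicate 2. Day 8 against the syngeneic grafts turned with quantile normalization (-0.0097 and -0.011) and normexp (-0.25 and -0.19), and for miR-125b-5p with median scaling (-4e-04). Without 1 array it ranged from -0.11 to 0.47 and from -0.13 to 0.41, lowest without syngeneic replicate 2. Day 14 against the syngeneic grafts turned with no scaling (0.55 and 0.65) and the slide block (0.078 and 0.14), and ranged without 1 array from -0.50 to 0.078 and from -0.40 to 0.14, highest without syngeneic replicate 3. Day 14 against day 5 turned with no scaling for miR-125b-5p (0.10) and with the slide block (0.59 and 0.67), and day 100 against day 8 with the slide block (-0.32 and -0.14). Within arrays, normexp turned miR-99a against let-7c (-0.11), miR-125b-5p against let-7c (-0.054) and miR-99a against miR-125b-5p (-0.052). Without 1 array the last ranged from -0.032 to 0.042, and miR-125b-5p against let-7a from -0.10 to 0.018, turning without syngeneic replicate 3.

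The labels do not say whether replicate numbers pair the grafts. Deviations of same-numbered arrays correlated at -0.65 to 0.45, above 0.1 in 9 of 30 pairs. This cannot decide the question, since differently numbered arrays were not set beside them. The replicate block changed the count of members called only on day 100 against day 5. Without scaling, the median of all tested miRNAs moved by up to 0.63, and relative to it the difference of day 14 from day 100 was -1.18 for miR-99a and -1.11 for miR-125b-5p. The filter on mean signal left 37 miRNAs and no member (0). The number of all miRNAs called ranged from 1 to 43 on day 100 against the syngeneic grafts (main 32), 5 to 38 against day 5 (30) and 20 to 59 between days 14 and 100 (53).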
